A study of Mus musculus with 10 samples.

Results

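The cells of interest were the dNSC, definitive neural stem cells derived in culture from mouse embryonic stem (ES) cells, set against every other culture of the series. They were chosen by the array titles, which label 2 of the 10 arrays as definitive neural stem cells, and were compared with the 8 other arrays, 2 for each of 4 groups. ESC were cells of the ES line R1 on feeder fibroblasts inactivated with mitomycin C, in 15% serum with the cytokine Lif at 1000 U/ml. pNSC_L were primary spheres of primitive neural stem cells that formed from those cells without serum in N2 supplement and 1000 U/ml Lif. pNSC_LF were the same cells after a further passage in 1000 U/ml Lif, 10 ng/ml FGF and 2 µg/ml heparin. dNSC came from passaging primitive cells into N2 and B27 supplements with 20 ng/ml EGF, 20 ng/ml FGF and 2 µg/ml heparin, and no Lif is stated for them. CNS_NSC were neural stem cells from the frontal lobes of wild-type ICR embryos at E11.5, grown in N2 with EGF, FGF and heparin at the doses used for dNSC and with no B27 stated. By their labels all cultures but CNS_NSC came from 1 line, R1, and CNS_NSC differs from them in source, so that line and origin cannot be told apart in a comparison with it. B27 was stated for dNSC alone. A gene was called higher or lower in dNSC where it differed the same way from each of the 4 other groups and the largest of the 4 limma p-values passed an adjusted p of 0.05 over all 19938 genes.

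As background, ES cells that leave the naive state pass through a primed, epiblast-like state before they form neural tissue. Definitive neural stem cells grow as spheres in FGF and EGF and resemble the radial progenitors of the embryonic neural tube, whereas primitive neural stem cells depend on Lif. In the embryo, progenitors take regional identities under signals from organising centres, with Wnt1 and Fgf8 from the midbrain-hindbrain boundary, Shh from the floor plate, and BMP and Wnt proteins from the roof plate.

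The values are log2 intensities on 1 array per culture, and the series calls the 2 cultures of a group biological replicates, whose small number limits the precision. Each array's lower quartile over probe sets fell within 6.39 to 6.49 and the median gene at 8.10, and where a mean is below that quartile its distance from dNSC is uncertain in size. Replicates of dNSC were the closest of any group, with 1 gene apart by 2-fold or more, against 30 in ESC, 167 in pNSC_L, 23 in pNSC_LF and 277 in CNS_NSC. Hprt, a purine salvage enzyme, read 6.99 and 6.76 on the ESC arrays and between 10.45 and 11.60 on the 8 others, although the pNSC_L, pNSC_LF and dNSC cultures are labelled as derived from R1; whether the ESC arrays hold the same line or clone as the derived cultures was not tested, and each difference between dNSC and ESC is subject to this. With ESC left out of the comparison, 1000 genes were called higher and 518 lower. These included all 849 and 385 genes called against the 4 groups. That is so by construction, since fewer of the same contrasts then have to pass, and the inclusion is no check on the ESC arrays.

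The mean over 8 neural progenitor markers was close in dNSC and CNS_NSC, although single markers were lower or higher in dNSC, and over pluripotency markers dNSC lay between ESC and CNS_NSC. Fabp7, a lipid carrier found in radial glia, read 13.95 and 14.02 in dNSC and 14.55 and 14.50 in CNS_NSC, against 6.61 to 7.72 on the 6 other arrays. Nes, the intermediate filament nestin, read 10.04 and 9.84, above the 6 arrays of ESC and primitive cells (6.94 to 7.48) and below CNS_NSC (11.42 and 11.63). Msi1, an RNA-binding protein of progenitors, was higher, at 12.25 and 12.26 against 10.61 and 10.06 in CNS_NSC. Over the 8 progenitor markers (Nes, Sox1, Sox2, Pax6, Fabp7, Cdh2, Msi1 and Vim) the mean level was 11.84 on both dNSC arrays, 11.86 and 11.88 in CNS_NSC, and 9.21 to 9.38 elsewhere. Pou5f1, the pluripotency factor Oct4, read 11.15 and 10.94 in dNSC, 12.66 to 13.04 in ESC and primitive cells and 6.97 and 6.92 in CNS_NSC. The mean of 5 pluripotency markers was 10.66 and 10.78 in dNSC, 12.77 to 12.94 in ESC and primitive cells and 6.93 and 7.05 in CNS_NSC. In bulk RNA fewer pluripotent cells and less of this RNA per cell cannot be told apart. Egfr, the EGF receptor, read 7.91 and 7.76 in dNSC and 12.25 and 12.32 in CNS_NSC, and Olig2, a factor of ventral progenitors and oligodendrocyte precursors, 8.34 and 8.27 and 12.54 and 12.72. Egfr in dNSC lay within the 7.51 to 8.29 of ESC and primitive cells.

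More genes were called above every other culture than below. In dNSC 849 genes were called higher (4.26% of all genes) and 385 lower (1.93%). The difference from the nearest group exceeded 2-fold at 340 of the higher and 47 of the lower genes, and 8-fold at 22 and 0. Both dNSC arrays lay above all 8 others at 2498 genes (12.5%) and below them at 1972 (9.89%), and every called gene was among these. The nearest group was CNS_NSC for 427 of the higher genes (50.3%), pNSC_LF for 175, ESC for 139 and pNSC_L for 108. Of 13767 probe sets with no symbol or several, which are not among these genes, 0.741% were called higher and 0.567% lower in a fit over all probe sets. In 75 of the higher genes all 4 other groups read below the lower quartile. With the dimmer 50% of genes left out, 514 genes were called higher and 431 lower. By the same rule 1627 genes were called higher and 1323 lower in CNS_NSC, 188 and 74 in ESC, 25 and 3 in pNSC_LF and 4 and 3 in pNSC_L. Without dNSC replicate 1 or 2, which leaves 1 dNSC array whose spread is assumed to be that of the other groups, 497 and 500 genes were called higher and 133 and 149 lower. The lower count was also 248 without ESC replicate 1, 236 without pNSC_LF replicate 1 and 235 without its replicate 2.

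**Figure D1:**
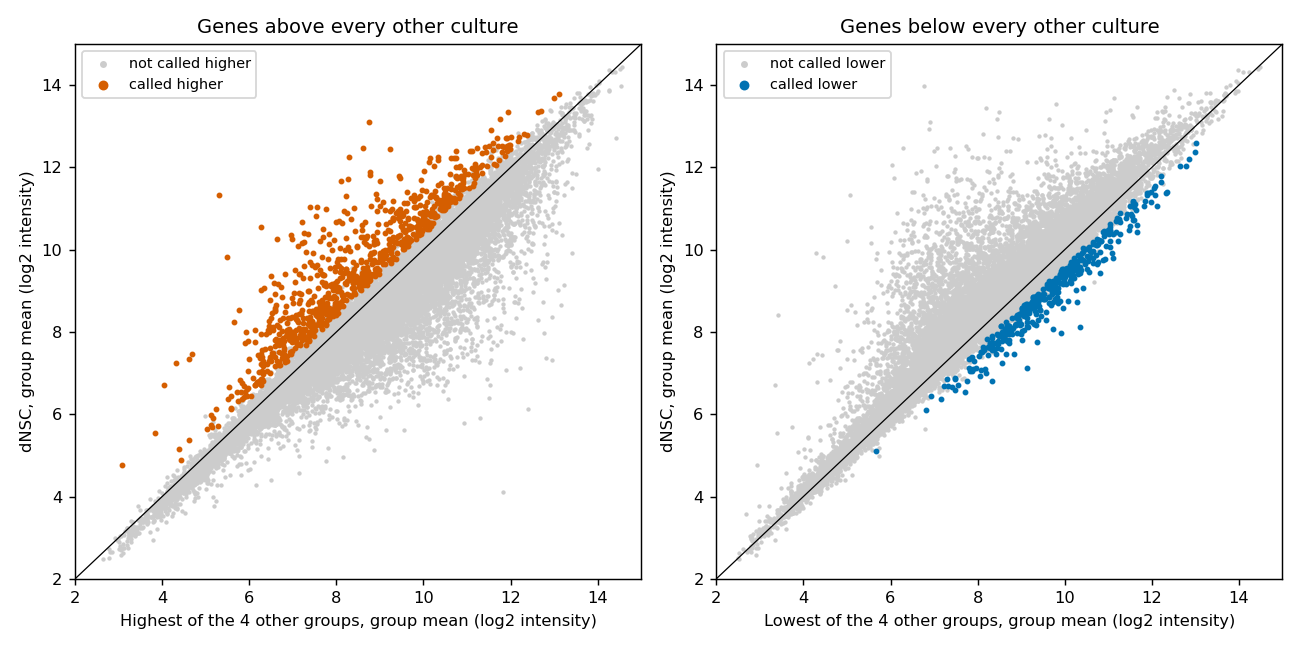
Mean log2 intensity of each of the 19938 genes in dNSC (y axis) against the highest (left) and the lowest (right) of the 4 other group means (x axis), with genes called higher in orange, genes called lower in blue, all others in grey and the line of equality in black. The 849 higher genes reach up to 6.02 above the line and the 385 lower genes up to 2.24 below it.

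Single genes reached far above all other cultures. Car4, a membrane-bound carbonic anhydrase, read 13.11 and 13.11 in dNSC, against 8.28 and 8.17 in ESC, 7.72 and 7.36 in pNSC_L, 8.64 and 8.87 in pNSC_LF and 6.80 and 7.02 in CNS_NSC. It was higher than in the nearest group, pNSC_LF, by 4.36 ± 0.14 (20.5-fold, adjusted p = 1.2e-07; ± is the SE from limma, n = 2 arrays per group, here and below). Igf2, the imprinted insulin-like growth factor, read 12.31 and 12.21 in dNSC, against 8.37 and 8.20 in ESC, 8.11 and 8.16 in pNSC_L, 8.27 and 8.14 in pNSC_LF and 8.17 and 8.21 in CNS_NSC. The 8 other arrays spanned only 8.11 to 8.37, and Igf2 was 15.7-fold higher in dNSC (3.97 ± 0.11, adjusted p = 5.5e-08). Prtg, the cell-surface protein protogenin of the early neural tube, stood 3.89 ± 0.18 above ESC, with 12.42 and 12.55 in dNSC against 7.06 to 8.63 on the 8 others. Its relative Igdcc3 stood 3.03 ± 0.13 above pNSC_LF. Serpinf1, the secreted factor PEDF, was higher by 3.57 ± 0.10, and Car14, another carbonic anhydrase, by 3.63 ± 0.12. Slitrk6, a neuronal adhesion protein, read 9.78 and 9.89 in dNSC and 4.12 to 5.79 elsewhere, and Lgi1, a secreted synaptic protein, 10.53 and 10.59 and 5.51 to 6.48. All 4 other groups read below the lower quartile at both genes, so their differences of 4.35 ± 0.23 and 4.27 ± 0.14 are uncertain in size. Sst, the neuropeptide somatostatin, stood 3.28 ± 0.10 above the nearest group, and the protease Pappa, which cleaves IGF binding proteins, 3.29 ± 0.14. Over the 25 genes that lead this direction the difference ran from 2.88 to 4.36, and the gap between the lower dNSC array and the highest of the 8 others was at least 2.52.

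**Figure D2:**
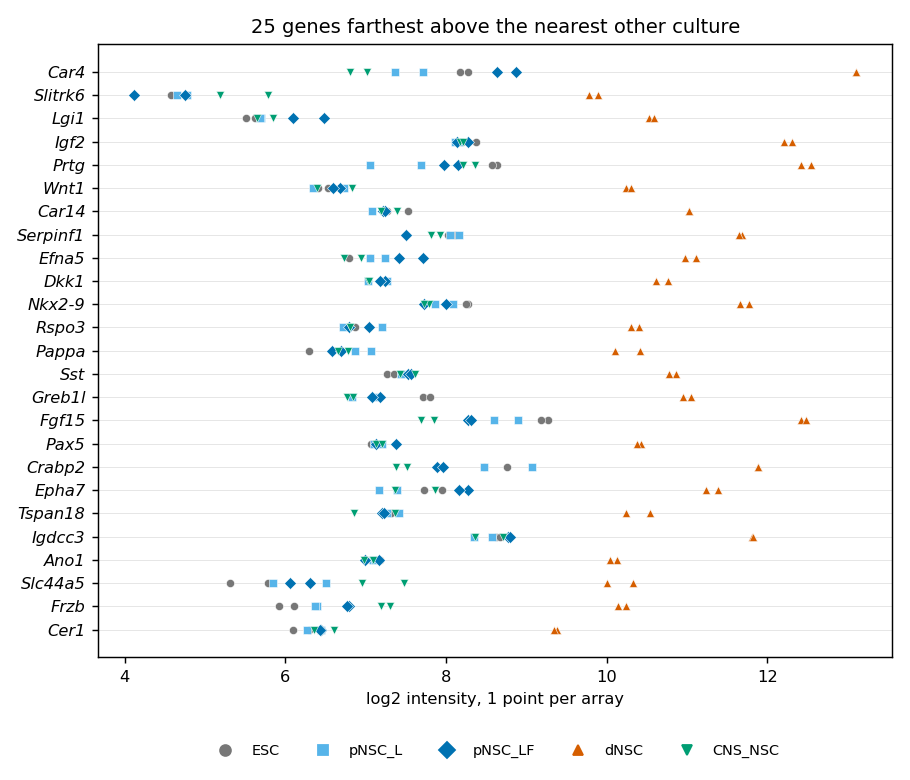
Log2 intensity on each of the 10 arrays (x axis, 1 point per array, shape and colour by group) for the 25 genes farthest above the nearest other group (y axis). The genes were chosen so that both dNSC arrays lie to the right of all 8 others, and the gap is at least 2.52.

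Genes of the midbrain-hindbrain boundary were higher in dNSC in 13 of 23 measured cases and lower in none (56.5%, against 4.26% and 1.93% of all genes). The median difference from the mean of the 4 other groups was 1.80, against -0.01 over all genes. This list and those below were chosen with earlier results of these data known, which limits any comparison with the share over all genes. The shares over all genes, 4.26% higher and 1.93% lower, are the background for each list below. Wnt1, the signal of the midbrain side of the boundary, read 10.24 and 10.30 in dNSC, against 6.41 and 6.53 in ESC, 6.73 and 6.34 in pNSC_L, 6.68 and 6.59 in pNSC_LF and 6.40 and 6.83 in CNS_NSC. The groups did not overlap, and Wnt1 was 12.4-fold above its nearest group (3.64 ± 0.16, adjusted p = 6.5e-07 by limma). The homeobox factor En1, which acts downstream of Wnt1, read 9.79 and 9.85 in dNSC, against 7.31 and 7.30 in ESC, 7.31 and 7.22 in pNSC_L, 7.23 and 7.25 in pNSC_LF and 7.60 and 7.71 in CNS_NSC, and rose by 2.17 ± 0.10 over CNS_NSC. Its relative En2 read 11.31 and 11.14 in dNSC, against 7.81 and 7.76 in ESC, 7.13 and 7.54 in pNSC_L, 8.09 and 8.02 in pNSC_LF and 8.41 and 9.44 in CNS_NSC, with the CNS_NSC arrays apart from each other, and stood 2.30 ± 0.27 above them. Of the paired-box factors, Pax5 rose by 3.15 ± 0.11 and Pax8 by 1.58 ± 0.11. Pax2 read 7.88 and 8.07 against 7.33 to 7.83, a difference of 0.29 ± 0.13 that did not pass (adjusted p = 0.38). The boundary ligand Fgf18 was higher by 1.28 ± 0.11 and Fgf8 by 0.71 ± 0.12 (adjusted p = 0.0045, or 0.055 without dNSC replicate 2). Otx2, which specifies forebrain and midbrain, read 11.99 and 11.97 in dNSC, 11.14 and 11.12 in pNSC_L and 7.43 and 9.53 in CNS_NSC. It lay 0.85 ± 0.48 above pNSC_L and was not called (adjusted p = 0.7). Irx2 and Irx3, Iroquois factors of the posterior neural plate, were higher by 1.32 ± 0.17 and 1.00 ± 0.13, and Cnpy1, a regulator of FGF signalling at the boundary, by 1.26 ± 0.18.

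Ventral midline genes were higher in dNSC as well, 10 of 17 measured (58.8%, against 4.26% of all genes), with none lower. Their median difference from the mean of the other groups was 1.16. Shh, the ligand of the floor plate, read 9.55 and 9.24 in dNSC, against 7.33 and 7.52 in ESC, 7.49 and 7.51 in pNSC_L, 7.34 and 7.51 in pNSC_LF and 7.45 and 7.66 in CNS_NSC. Only the dNSC arrays exceeded 7.66, and Shh rose by 1.84 ± 0.14 (adjusted p = 2.0e-05). The floor plate factors Foxa1 and Foxa2 rose by 2.06 ± 0.15 and 1.70 ± 0.11, and Nkx2-9, a homeobox factor next to the floor plate, by 3.45 ± 0.12. Nkx6-1, another ventral homeobox factor, was higher by 0.98 ± 0.14. In the Shh pathway 5 of 14 genes were higher and none lower (35.7%, against 4.26% and 1.93% of all genes). These were the ligand with its receptor Ptch1 (1.08 ± 0.14), the decoy receptor Hhip (2.67 ± 0.24), the co-receptor Boc (1.70 ± 0.12) and the transcription factor Gli3 (1.84 ± 0.17). Ptch1 and Hhip are themselves induced by the pathway. Shh, Ptch1 and Hhip are also counted among the ventral midline genes, so these counts are not independent. Hhip read 10.69 and 10.65 in dNSC against 7.11 to 8.25 on the 8 other arrays.

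Of 22 dorsal neural tube and neural crest genes 9 were higher and none lower, with a median of 0.75. Zic1, a zinc finger factor of the dorsal neural tube, read 11.95 and 11.89 in dNSC, against 6.69 and 6.69 in ESC, 7.03 and 6.70 in pNSC_L, 6.85 and 6.71 in pNSC_LF and 9.66 and 10.36 in CNS_NSC. It was at 7.03 or less in ESC and primitive cells, intermediate in CNS_NSC and highest in dNSC, 1.92 ± 0.20 above CNS_NSC (adjusted p = 2.2e-04). Zic2 stood 1.48 ± 0.21 above CNS_NSC, a call lost in the unmoderated test (adjusted p = 0.057). Zic4 stood 1.25 ± 0.14 above CNS_NSC by its brighter probe set, and 0.58 above the nearest group when its probe sets are averaged (adjusted p = 0.015). The dorsal paired-box factors Pax3 and Pax7 rose by 2.50 ± 0.17 and 1.20 ± 0.13. Tfap2b, a neural crest and dorsal interneuron factor, read 9.02 and 9.10 against 5.96 to 6.35, with all 4 other groups below the lower quartile. The mesenchymal factors Snai2 and Twist1 were higher by 1.07 ± 0.14 and 0.91 ± 0.13, while Sox10, which marks migrating crest, read 7.73 and 7.51 against 7.48 to 8.67 and Foxd3 8.17 and 7.85, within the other groups.

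Fewer genes were called in the hindbrain and forebrain lists. Of 25 hindbrain and Hox genes 3 were higher and none lower (12.0%): Hoxa2 by 1.28 ± 0.13, Hoxb2 by 1.18 ± 0.15 and Hoxc8 by 0.90 ± 0.15. Hoxa2 and Hoxb2 pattern the anterior hindbrain, and Hoxa2 read 7.51 and 7.64 in dNSC, under the median gene. The Hoxc8 call was lost without dNSC replicate 1 (adjusted p = 0.063). Of 18 forebrain genes 4 were higher and none lower (22.2%), led by the zinc finger factor Fezf2, which read 9.37 and 9.47 in dNSC, against 6.94 and 7.06 in ESC, 7.22 and 7.05 in pNSC_L, 7.02 and 7.23 in pNSC_LF and 7.02 and 7.27 in CNS_NSC and rose by 2.27 ± 0.13. The count of forebrain genes was 2 without dNSC replicate 1.

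Wnt pathway genes called in dNSC were ligands, agonists and antagonists together, 10 of 33 higher and none lower, at 10 under each of the 10 fits that left out an array. The count was 9 in the unmoderated test, 8 with the dimmer 30% of genes left out and 2 with the dimmer 50% left out. Beside Wnt1, the ligand Wnt8b rose by 1.99 ± 0.14. The R-spondins, secreted agonists that stabilise Wnt receptors, were called in 3 cases, Rspo3 at 3.39 ± 0.15, Rspo2 at 1.93 ± 0.16 and Rspo1 at 0.92 ± 0.12. Rspo3 read 10.30 and 10.40 in dNSC, against 6.87 and 6.79 in ESC, 7.20 and 6.72 in pNSC_L, 6.79 and 7.04 in pNSC_LF and 6.80 and 6.80 in CNS_NSC. The antagonist Dkk1, which blocks the Wnt co-receptor and is itself a Wnt target, read 10.61 and 10.76 against 7.03 to 7.27 and was 11.1-fold higher (3.47 ± 0.12, adjusted p = 1.5e-07). The secreted Wnt-binding proteins Frzb and Sfrp2 rose by 2.94 ± 0.11 and 2.02 ± 0.18. The nuclear effector Lef1 was higher by 1.74 ± 0.11 and the feedback inhibitor Nkd1 by 1.35 ± 0.20.

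Of 31 FGF pathway genes 8 were higher and 1 lower. The ligand Fgf15 read 12.42 and 12.48 in dNSC, against 9.27 and 9.18 in ESC, 8.90 and 8.60 in pNSC_L, 8.27 and 8.31 in pNSC_LF and 7.69 and 7.85 in CNS_NSC and was 9.38-fold above ESC, the nearest group (3.23 ± 0.12, adjusted p = 2.0e-07). Fgf5, the ligand of the primed epiblast, stood 2.29 ± 0.14 above pNSC_LF, at 10.18 and 10.27 against 7.03 to 7.95. The feedback inhibitor Il17rd was higher by 1.48 ± 0.13. Etv5, an ETS factor induced by FGF, fell to 11.00 and 10.93 against 11.61 to 12.11, -0.68 ± 0.14 from pNSC_L (adjusted p = 0.015, and up to 0.13 without pNSC_L replicate 2 or either dNSC array). Without either dNSC array 5 FGF genes were called higher.

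In the BMP and Nodal pathways 7 of 29 genes were higher and none lower, and 3 were without either dNSC array, 4 without either ESC or either pNSC_LF array. The ligands Bmp2 and Bmp5 rose by 2.26 ± 0.11 and 2.34 ± 0.16. Cer1, a secreted antagonist of Nodal, BMP and Wnt, read 9.38 and 9.34 in dNSC, against 6.09 and 6.29 in ESC, 6.44 and 6.27 in pNSC_L, 6.44 and 6.43 in pNSC_LF and 6.36 and 6.61 in CNS_NSC, and was higher by 2.88 ± 0.12 (adjusted p = 4.9e-07).
The Notch pathway had 4 of 20 members higher, of which the receptor Notch2 (1.13 ± 0.13) kept its call in each fit that left out an array and the ligand Jag1 (1.39 ± 0.25) lost it without either dNSC array (adjusted p up to 0.062). Without either dNSC array the Notch count was 1.

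Retinoid genes were higher in 6 of 19 cases and lower in none. Crabp2, a carrier of retinoic acid to its nuclear receptors, read 11.89 and 11.88 in dNSC, against 8.76 and 8.47 in ESC, 9.07 and 8.47 in pNSC_L, 7.89 and 7.96 in pNSC_LF and 7.52 and 7.38 in CNS_NSC and stood 3.11 ± 0.18 above pNSC_L (adjusted p = 3.7e-06). Its relative Crabp1 read 13.30 and 13.38, above ESC, the nearest group, by 1.41 ± 0.12, while CNS_NSC was at 8.43 and 8.53. Cyp26a1, the enzyme that degrades retinoic acid and is induced by it, read 9.08 and 9.29 against 6.22 to 6.76. It rose by 2.62 ± 0.15 over CNS_NSC. The count was 4 without either dNSC array or without ESC replicate 2.

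The list of primed epiblast genes gave 11 higher members of 23 and none lower (47.8%), with a median of 1.85. Fgf5, Fgf15, Dkk1, Cer1, Foxa2, Lef1, Zic2 and Car14 were among them, and so was the keratin Krt18 at 1.74 ± 0.25. Most of these also belong to the signalling and regional lists above, so the lists are not independent. The primed epiblast count was 10 with the dimmer 30% of genes left out, 5 with the dimmer 50% left out and 8 in the unmoderated test. The core and naive pluripotency list had 0 of 26 genes called in either direction by limma, with 1 higher and 0 lower at an unadjusted p under 0.05 and 0 called by the unmoderated test. Its median difference was -1.37 from the mean of the other groups but -2.34 from ESC and 1.43 from CNS_NSC, as dNSC lay between them. Lin28a, an RNA-binding protein of pluripotent and early neural cells, had the largest difference from its nearest group, at 0.26 ± 0.10 above pNSC_L (adjusted p = 0.29).

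MicroRNA genes of the cluster that holds Mir302a and Mir367, which is known from the primed epiblast, were picked out after their values were seen. All 5 of its hairpins on the array were called higher, of 11 called among 300 measured microRNA genes (3.67% higher, against 4.26% of all genes, and none lower). RefSeq (GRCm38.p6) places them within 580 bases on the plus strand of chromosome 3, from 127545228 to 127545807. The mature sequences of the cluster given there are shown because 3 of them share a core of the seed, which pairs with target RNAs (bases 2 to 8, in capitals).
mmu-miR-302b-3p: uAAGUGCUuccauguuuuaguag
mmu-miR-302d-3p: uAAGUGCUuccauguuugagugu
mmu-miR-302c-3p: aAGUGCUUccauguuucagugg
mmu-miR-367-3p: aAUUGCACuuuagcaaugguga
mmu-miR-302a-5p: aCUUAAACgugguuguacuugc

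Mature miR-302b and miR-302d have the seed AAGUGCU, miR-302c carries it shifted by 1 base as AGUGCUU, and that of Mir367 is AUUGCAC. Mir302a read 7.05 and 7.42 in dNSC, against 4.09 and 4.16 in ESC, 4.20 and 4.21 in pNSC_L, 4.42 and 4.19 in pNSC_LF and 4.25 and 4.13 in CNS_NSC, 2.93 ± 0.14 above pNSC_LF (adjusted p = 8.9e-07 by limma). Mir302b, Mir302c and Mir302d stood 2.68 ± 0.16, 2.77 ± 0.27 and 2.74 ± 0.12 above the nearest group, and Mir367 1.71 ± 0.10. On the 8 other arrays all 5 read between 3.24 and 4.90, below the lower quartile, so the sizes are uncertain. Mir367 read 5.57 and 5.50 in dNSC, also below the lower quartile, and its call rests on dim values on both sides. The arrays read the RNA of the precursor region and not the mature forms. The ESC arrays were among the low ones.

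Imprinted genes were higher in 6 of 21 measured cases, with none lower and a median of 1.17. Besides Igf2 these were Dlk1, a Notch-like membrane protein of progenitors (2.00 ± 0.10), the zinc finger genes Peg3 (1.67 ± 0.21) and Zim1 (0.97 ± 0.15), Grb10, an adaptor that restrains insulin and IGF receptors (1.59 ± 0.15), and Magel2 (0.86 ± 0.15). Dlk1 read 10.57 and 10.60 in dNSC, against 8.58 and 8.59 in ESC, 8.27 and 8.31 in pNSC_L, 8.47 and 8.54 in pNSC_LF and 8.40 and 8.54 in CNS_NSC, with all 8 other arrays within 8.27 to 8.59. The Magel2 call was lost without dNSC replicate 1 (adjusted p = 0.062).
The largest difference of any gene was that of Gm32061, a long noncoding RNA with a predicted name that was singled out for its value. It read 11.37 and 11.27 in dNSC, against 5.21 and 5.16 in ESC, 5.30 and 4.91 in pNSC_L, 5.29 and 4.82 in pNSC_LF and 5.33 and 5.27 in CNS_NSC and lay 6.02 ± 0.17 above CNS_NSC (adjusted p = 5.5e-08), with the other groups below the lower quartile. In RefSeq (GRCm38.p6) it precedes, by position on the chromosome, the imprinted genes Ndn, Magel2, Mkrn3 and Peg12, with Chrna7 and Otud7a beyond them. Of these measured neighbours Magel2 alone was called. Ndn had a mean of 11.01 in dNSC and 11.20 in CNS_NSC, against 8.39 to 9.14 in the other groups, a different order from that of the noncoding RNA.
Of 10 oncofetal genes 3 were higher, among them Lin28b, a repressor of let-7 microRNAs, at 1.62 ± 0.18 above ESC. Hmga2 stood 0.96 ± 0.19 above pNSC_L (adjusted p = 0.013, up to 0.12 without pNSC_L replicate 2, pNSC_LF replicate 1 or either dNSC array), and the count was 1 without dNSC replicate 1.

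Axon guidance genes were higher in 11 of 35 cases and lower in none, with a median difference of 1.39. Ephrin ligands and Eph receptors, which repel one another across regional borders, led the list. Efna5 read 10.98 and 11.11 in dNSC, against 6.79 and 7.06 in ESC, 7.24 and 7.05 in pNSC_L, 7.71 and 7.41 in pNSC_LF and 6.73 and 6.94 in CNS_NSC, 11.2-fold above pNSC_LF (3.48 ± 0.15, adjusted p = 4.9e-07). Its receptors Epha7 and Epha3 rose by 3.09 ± 0.16 and 2.58 ± 0.13, and the transmembrane ligand Efnb2 by 2.34 ± 0.14. All 3 Slit genes, which code for secreted repellents of the midline, were higher: Slit1 by 0.93 ± 0.14, Slit2 by 1.52 ± 0.25 and Slit3 by 1.28 ± 0.12. Unc5c, a netrin receptor, rose by 1.88 ± 0.13.
Among epithelial and junction genes 5 of 24 were higher, including the mesenchymal cadherins Cdh11 (2.69 ± 0.24) and Cdh6 (1.37 ± 0.16). Cdh11 read 11.70 and 11.66 in dNSC, against 6.93 and 6.76 in ESC, 7.89 and 8.22 in pNSC_L, 7.35 and 7.71 in pNSC_LF and 9.41 and 8.57 in CNS_NSC. The count was 3 without either dNSC or either pNSC_LF array.

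Of 33 neuronal genes 12 were higher and none lower (36.4%, against 4.26% and 1.93% of all genes), with a median of 1.07. The count was 8 with the dimmer 30% of genes left out, 3 with the dimmer 50% left out and 9 in the unmoderated test. The basic helix-loop-helix factor Nhlh1 and the factor Ebf2, both switched on as neurons are born, rose by 2.30 ± 0.18 and 2.74 ± 0.10. Nefm, a neurofilament, read 9.45 and 9.79 in dNSC, against 6.88 and 6.62 in ESC, 6.72 and 7.06 in pNSC_L, 7.12 and 7.24 in pNSC_LF and 7.42 and 7.43 in CNS_NSC and was higher by 2.19 ± 0.15 (adjusted p = 1.6e-05). The motor neuron factor Isl1 was higher by 1.74 ± 0.12, and Lhx1 and Lhx5, factors of early interneurons, by 1.65 ± 0.13 and 1.93 ± 0.19. The microtubule protein gene Dcx, of newborn neurons, read 9.05 and 9.24 in dNSC and 8.93 and 6.56 on the CNS_NSC arrays and was not called (adjusted p = 0.26). Of 5 neuron markers, Dcx among them, 0 were called. Their mean was 9.83 and 9.86 in dNSC against 8.23 to 8.93 elsewhere, and its part in these counts was not tested.
Of 26 neural stem and progenitor genes 6 were higher and none lower, and the list's median was -0.30 against CNS_NSC but 1.84 against ESC. Msi1 was one, at 12.25 and 12.26 against 9.50 to 10.61 (1.92 ± 0.16). Without either dNSC array the count was 2, and without either ESC or either pNSC_LF array, pNSC_L replicate 2 or CNS_NSC replicate 1 it was 4.

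Some genes of the mesoderm, endoderm and fibroblast lists were higher in dNSC. Of 21 endoderm genes 7 were higher, of 21 mesoderm and muscle genes 7, and of 24 fibroblast genes 6, with none lower in any list and medians of 0.46, 0.33 and 0.49. Sox17, an endoderm factor, read 8.64 and 8.77 in dNSC, against 6.76 and 6.90 in ESC, 7.15 and 7.11 in pNSC_L, 7.05 and 7.09 in pNSC_LF and 6.64 and 6.92 in CNS_NSC, and rose by 1.58 ± 0.12. Gata6, shared by endoderm and mesoderm, was higher by 0.84 ± 0.11. The chemokine receptor Cxcr4, which neural progenitors also carry, rose by 2.05 ± 0.23. The other defining endoderm genes Gata4 (8.77 and 8.70) and Afp (6.45 and 6.58) read within the other groups. Kdr, the VEGF receptor of early mesoderm and endothelium, was higher by 1.61 ± 0.10, and Acta2, smooth muscle actin, by 1.67 ± 0.12, while Mesp1 (6.97 and 6.86) and Hand1 (7.81 and 7.76) were not above the other groups. Pdgfrb, a receptor of fibroblasts and pericytes, rose by 1.00 ± 0.11, and the fibroblast collagen Col1a1 read 8.44 and 8.48 against 8.20 to 8.58. Without either dNSC array the fibroblast count was 2, and it was 4 without pNSC_L replicate 2. Mean levels over the marker sets were 8.58 and 8.63 for endoderm in dNSC (7.33 to 7.91 elsewhere), 7.83 and 7.84 for mesoderm (7.29 to 7.45) and 8.20 and 8.27 for fibroblasts (7.34 to 8.20). Of these marker sets Lum alone read below the lower quartile in dNSC, and its call was lost without 6 of the arrays in turn (adjusted p up to 0.29). Foxa2, counted above as a floor plate gene, is the remaining called endoderm marker. The fibroblast proteoglycan Dcn read 9.54 on both arrays in dNSC and 8.79 and 10.41 in pNSC_L, and 6.06 and 6.48 in ESC, the cultures labelled as grown on feeders. How far such cells contribute to the higher genes of dNSC was not tested.

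Genes of amino acid supply and its stress response were higher in dNSC in 15 of 23 cases and lower in none (65.2%), with a median difference of 1.11. These genes respond to the transcription factor Atf4 when amino acids are scarce or the endoplasmic reticulum is stressed. Slc7a11, the cystine transporter, read 11.77 and 11.73 in dNSC, against 6.18 and 5.96 in ESC, 6.41 and 7.51 in pNSC_L, 8.15 and 7.80 in pNSC_LF and 9.60 and 9.35 in CNS_NSC. The order ran from ESC through the primitive cells and CNS_NSC to dNSC, which stood 2.27 ± 0.28 above CNS_NSC (adjusted p = 8.0e-04). Chac1, an enzyme that degrades glutathione, read 12.28 and 12.20 in dNSC, against 9.47 and 9.26 in ESC, 8.88 and 9.31 in pNSC_L, 10.21 and 10.11 in pNSC_LF and 8.47 and 8.03 in CNS_NSC and rose by 2.08 ± 0.17 over pNSC_LF. Its kin in the response were higher by less, Mthfd2, of mitochondrial folate metabolism, by 1.02 ± 0.11, the kinase-like inhibitor Trib3 by 0.88 ± 0.12 and the mTORC1 inhibitor Sesn2 by 1.00 ± 0.11. Among transporters, Slc1a4 of neutral amino acids was higher by 1.24 ± 0.14, Slc7a1 of cationic ones by 0.89 ± 0.14 and Slc38a1 of glutamine by 0.82 ± 0.09. Aldh18a1, which starts proline synthesis, rose by 1.27 ± 0.17. Atf4 itself read 10.52 and 10.40 in dNSC and 10.51 and 10.35 in pNSC_LF and was not called, and Asns, asparagine synthetase, lay 0.12 ± 0.25 above pNSC_LF (adjusted p = 1). The count was 9 without dNSC replicate 1, 10 without dNSC replicate 2 or pNSC_LF replicate 2, and 11 to 15 without each of the others.

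**Figure D3:**
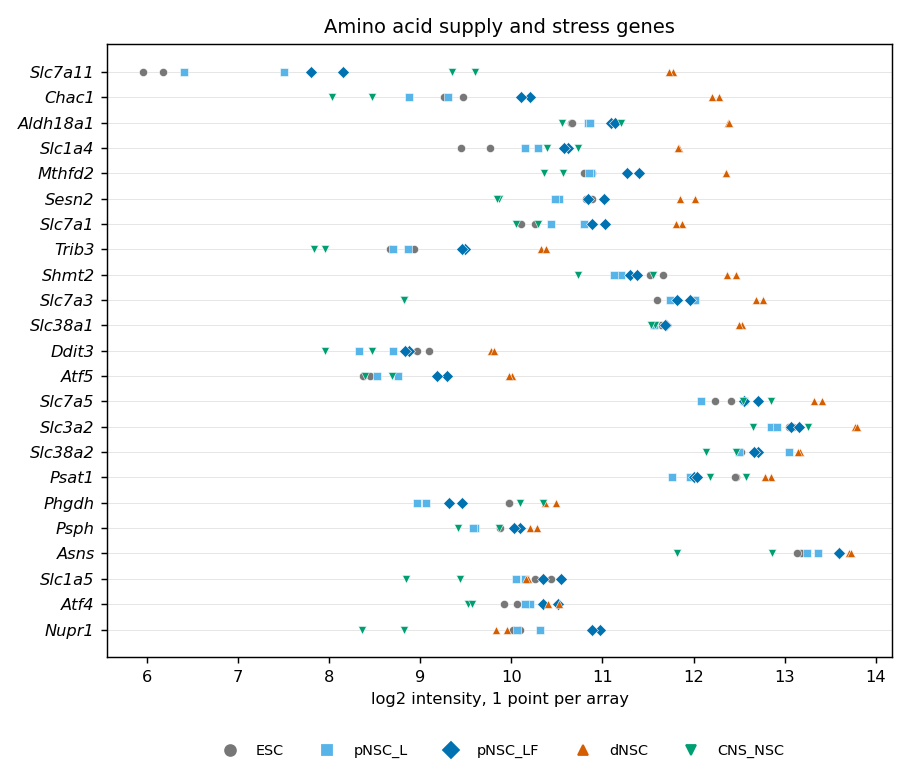
Log2 intensity on each of the 10 arrays (x axis, 1 point per array, shape and colour by group) for the 23 measured genes of amino acid supply and stress (y axis), the 15 called ones first. Both dNSC arrays lie to the right of all 8 others at 20 of the 23 genes, against 12.5% of all genes. Slc1a5, Atf4 and Nupr1 at the foot are the exceptions.

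The promoters of Chac1 and Slc7a11 are shown, since both genes led this list and their 250 bases before the start hold the letters TGATGNAA, the core of the element that Atf4 and C/EBP proteins bind together. The stretches are from RefSeq (GRCm38.p6), run 5′ to 3′ on the gene's strand and have the matching letters, searched on both strands, in capitals. They lie at chr2:119351019-119351086 on the plus strand and chr3:50443623-50443709 on the minus strand.
Chac1 promoter: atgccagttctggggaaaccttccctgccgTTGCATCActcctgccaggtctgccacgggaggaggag
Slc7a11 promoter: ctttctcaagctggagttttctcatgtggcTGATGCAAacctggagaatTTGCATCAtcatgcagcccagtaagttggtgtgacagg

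The match in Chac1 begins 193 bases before the start, and the 2 in Slc7a11 begin 66 and 47 bases before it, in opposite orientation. Among 15614 genes with a RefSeq promoter 3.14% held the letters within 250 bases, as did 4.12% of the 631 higher genes with a promoter and 4 of 19 measured members of the list with a promoter (Asns, Chac1, Nupr1 and Slc7a11). These 4 include Asns and Nupr1, which were not called, so 2 of 12 called members had the letters.

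Differences below all other cultures were smaller. Cpt1a, which admits fatty acids to mitochondria for oxidation, read 8.09 and 8.14 in dNSC, against 10.36 and 10.35 in ESC, 10.28 and 10.64 in pNSC_L, 10.74 and 10.75 in pNSC_LF and 11.29 and 11.18 in CNS_NSC. It lay -2.24 ± 0.12 from ESC, a 4.74-fold lower level (adjusted p = 3.0e-06). Ephx1, the microsomal epoxide hydrolase, read 7.06 and 7.19 in dNSC, against 9.84 and 9.83 in ESC, 9.20 and 9.07 in pNSC_L, 9.90 and 9.85 in pNSC_LF and 12.18 and 12.23 in CNS_NSC, and lay -2.01 ± 0.10 from pNSC_L. Lpin1, which makes diacylglycerol and regulates fat genes, was lower at -1.25 ± 0.15. Fam81a differed by -1.94 ± 0.14, the adhesion receptor Adgre5 (CD97) by -1.67 ± 0.16 and the protease inhibitor A2m by -1.60 ± 0.15. The tetraspanin Cd9 read 9.16 and 9.01 against 10.26 to 12.00 and was lower at -1.33 ± 0.14. Rbl2, the pocket protein p130 of quiescent cells, was lower at -1.20 ± 0.13. Over the 25 genes that lead this direction the difference ran from -1.15 to -2.24. Of these the call of Atp5mpl was lost without 9 of the arrays in turn (adjusted p up to 0.34) and under both other normalizations, and those of Tomm7 and Fut9 without dNSC replicate 1 (adjusted p = 0.07 and 0.051).

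**Figure D4:**
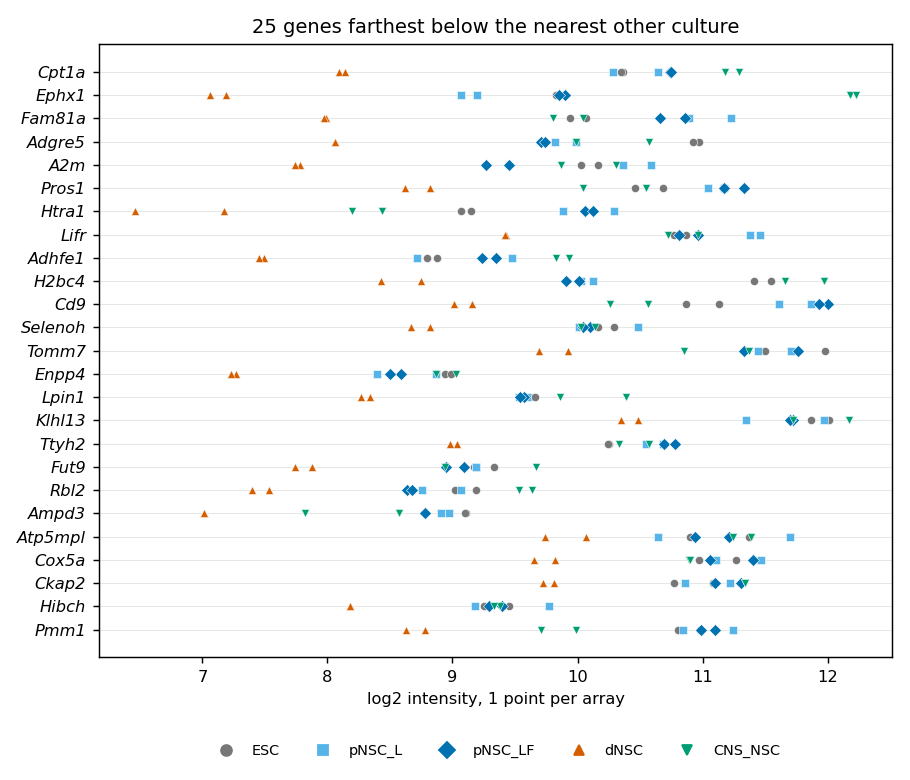
Log2 intensity on each of the 10 arrays (x axis, 1 point per array, shape and colour by group) for the 25 genes farthest below the nearest other group (y axis). The genes were chosen so that both dNSC arrays lie to the left of all 8 others, and the group means differ by -1.15 to -2.24 from the nearest group.

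Lifr, the receptor subunit for Lif, read 9.43 and 9.42 in dNSC, against 10.77 and 10.87 in ESC, 11.38 and 11.46 in pNSC_L, 10.81 and 10.96 in pNSC_LF and 10.72 and 10.96 in CNS_NSC. The CNS_NSC arrays, for which no Lif is stated either, overlapped those of ESC. CNS_NSC also differs from dNSC in source, and whether Lif bears on these levels was not tested. The dNSC level of Lifr was 2.62-fold lower than in ESC (-1.39 ± 0.11, adjusted p = 4.2e-05 by limma). Its effector Stat3 read 9.71 and 9.61 in dNSC, against 11.02 and 11.01 in ESC, 11.06 and 10.79 in pNSC_L, 10.72 and 10.75 in pNSC_LF and 11.48 and 11.31 in CNS_NSC and stood at -1.08 ± 0.12 from pNSC_LF. They were the 2 called of 20 genes of the Lif and Stat3 list, both lower, and remained called in each fit that left out an array.

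Cholesterol and lipid synthesis genes were lower in 7 of 22 measured cases and higher in none (31.8%, against 1.93% of all genes), with a median of -0.79. Both dNSC arrays lay below all 8 others at 15 of the 22, against 9.89% of all genes. Insig1, which retains the cholesterol sensor in the endoplasmic reticulum, read 9.75 and 9.61 in dNSC, against 11.15 and 11.01 in ESC, 10.79 and 10.89 in pNSC_L, 10.77 and 10.55 in pNSC_LF and 12.12 and 12.15 in CNS_NSC and was lower at -0.98 ± 0.11 (adjusted p = 4.9e-04). It was called in each fit. Hmgcs1, the synthase that precedes the rate-limiting step, read 10.65 and 10.70 against 11.26 to 12.77 and differed by -0.59 ± 0.13 from ESC and Dhcr7, the last enzyme of the pathway, by -0.68 ± 0.15 from pNSC_LF. The list's count was sensitive to single arrays, at 1 without either dNSC or either pNSC_LF array and 3 without either ESC array. The Hmgcs1 call was lost in each of those fits (adjusted p up to 0.18), and the Dhcr7 call without either dNSC array, either pNSC_LF array or pNSC_L replicate 1 (adjusted p up to 0.2).

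The antioxidant list split, with 2 of 21 genes higher and 4 lower. Sod2, the mitochondrial superoxide dismutase, read 11.03 and 11.09 in dNSC, against 12.34 and 12.24 in ESC, 12.10 and 12.41 in pNSC_L, 12.34 and 12.28 in pNSC_LF and 12.09 and 12.13 in CNS_NSC and was lower at -1.05 ± 0.12 (adjusted p = 3.8e-04). Nqo1, a quinone reductase induced by Nrf2, read 7.05 and 7.12 in dNSC, against 9.28 and 9.03 in ESC, 8.93 and 9.33 in pNSC_L, 10.72 and 10.64 in pNSC_LF and 8.47 and 7.87 in CNS_NSC and differed by -1.08 ± 0.20 from CNS_NSC, a call lost without either dNSC array (adjusted p up to 0.078). The secreted glutathione peroxidase Gpx3 was higher by 0.73 ± 0.11, as was Slc7a11. The lower count was 2 and 1 without dNSC replicate 1 and 2.

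Subunits of the respiratory chain and ATP synthase were grouped by symbol after the values were seen. They were lower in 15 of 77 cases (19.5%, against 1.93% of all genes) and higher in 1, with a median of -0.43. Cox5a, of cytochrome c oxidase, read 9.65 and 9.82 in dNSC, against 11.27 and 10.97 in ESC, 11.47 and 11.11 in pNSC_L, 11.40 and 11.06 in pNSC_LF and 10.89 and 10.90 in CNS_NSC and lay -1.16 ± 0.16 from CNS_NSC (adjusted p = 0.0017). Uqcrh, of complex III, read 10.63 and 10.59 in dNSC, against 12.30 and 12.03 in ESC, 11.89 and 11.44 in pNSC_L, 11.84 and 11.61 in pNSC_LF and 12.62 and 12.47 in CNS_NSC and lay -1.06 ± 0.16 from pNSC_L. Ndufs1, of complex I, was lower at -0.61 ± 0.10 (adjusted p = 0.0047, or 0.059 without dNSC replicate 1). The exception Cox6a2, the muscle form of a cytochrome c oxidase subunit, rose by 1.14 ± 0.13. The count was 5 without either dNSC array and 8 without ESC replicate 1 or either pNSC_LF array. The family's median differed between replicates by 0.21 in ESC, 0.11 in pNSC_LF and -0.06 in dNSC. Mitochondrial ribosome proteins were lower in 7 of 77 cases (9.09%) and higher in 1, Mrpl49, a call lost without dNSC replicate 2 (adjusted p = 0.084). Cytosolic ribosome proteins were lower in 3 of 57 cases (5.26%, against 1.93% of all genes). The medians of both ribosome families were -0.32 and -0.34, the cytosolic one being 0.02 against CNS_NSC. The mitochondrial count was 3 without either dNSC array, and 11 without pNSC_L replicate 1, and the cytosolic one 1 without dNSC replicate 1.

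Other lists had few called members. Shares called higher were 3.6% (cell cycle), 7.1% (chromatin), 9.1% (glycolysis) and 6.2% (p53 targets), against 4.26% of all genes. Those called lower were 4.5% (glycolysis), 5.3% (astroglial) and 12.5% (p53 targets), against 1.93%. Each of these list shares rests on 1 or 2 genes. Of 28 cell cycle genes Cdk6 was higher (0.84 ± 0.17) and none lower. The Cdk6 call was lost without ESC replicate 2 or either dNSC array (adjusted p up to 0.13), and 2 cell cycle genes were called without CNS_NSC replicate 1. Of 28 DNA methylation and chromatin genes 2 were higher, or 1 without ESC replicate 1 or either dNSC array, with Dpf2, a subunit of BAF remodelling complexes, at 0.86 ± 0.09. Of 22 glycolysis and hypoxia genes the neuronal enolase Eno2 (1.60 ± 0.22) and the growth factor Vegfa (0.90 ± 0.11) were higher. Aldoc, counted there and among 19 astroglial genes, was the 1 lower gene of both lists (-1.07 ± 0.26, adjusted p = 0.041, and up to 0.25 without 8 of the arrays in turn; also lost after cyclic loess). Of 16 p53 targets Sesn2 was higher, and Sesn1 (-0.66 ± 0.10) and Trp53inp1 (-0.94 ± 0.11) were lower, the Sesn1 call being lost without dNSC replicate 2 (adjusted p = 0.054). The lists of 9 thyroid hormone, 12 oligodendroglial, 17 interferon and antigen presentation and 17 germline genes had 0 called in either direction by limma and by the unmoderated test, with 1 higher and 1 lower interferon gene and 0 of the others at an unadjusted p under 0.05. Their members with the largest difference from the nearest group were Hr (-0.04 ± 0.11), Cnp (-0.65 ± 0.34), Usp18 (0.39 ± 0.11) and Piwil2 (-0.18 ± 0.12).

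**Figure D5:**
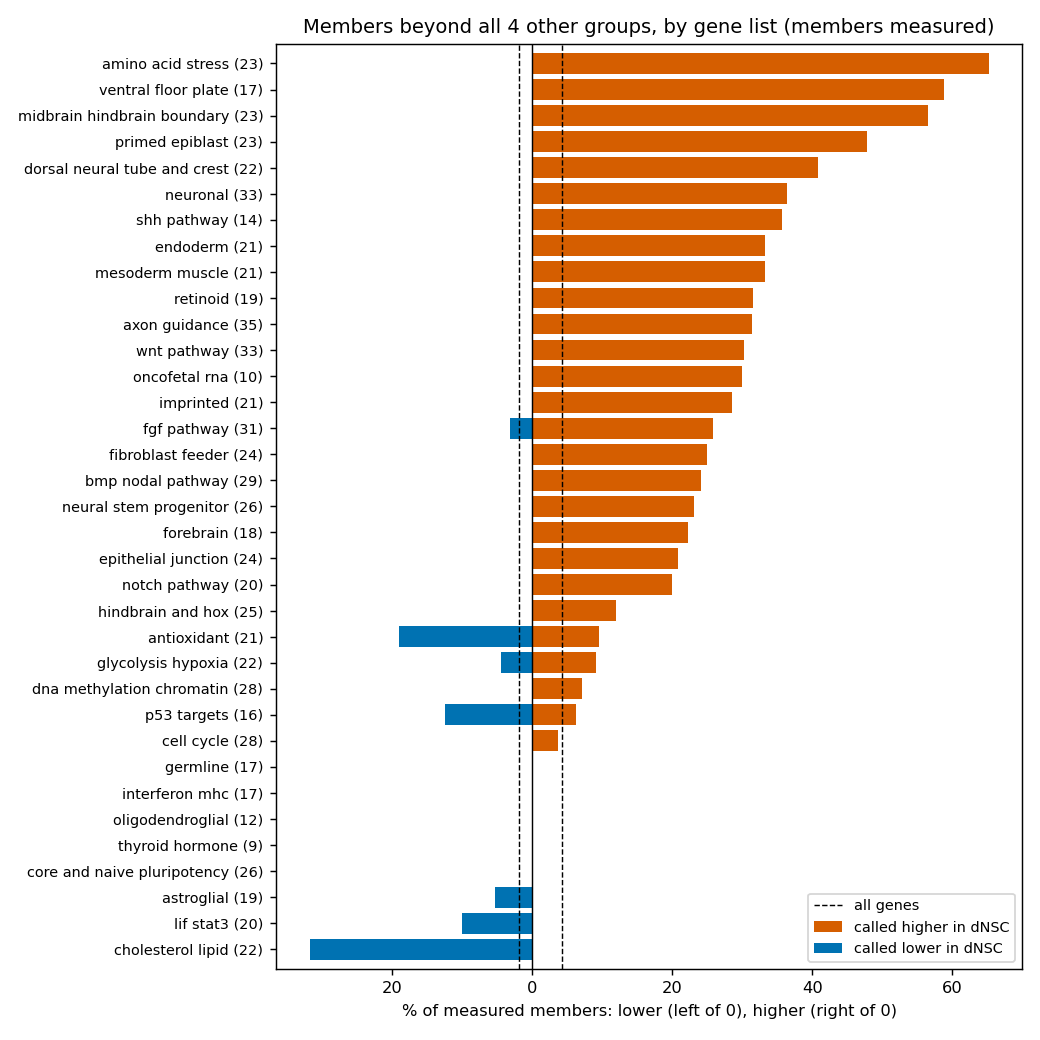
Percentage of the measured members of each of 35 gene lists (y axis, members measured in parentheses) called higher (orange, right of 0) or lower (blue, left of 0) in dNSC than in all 4 other groups, with all genes as dashed lines. Amino acid stress genes reach 65.2% higher and cholesterol and lipid genes 31.8% lower, against 4.26% and 1.93% of all genes. The lists were chosen with earlier results of these data known, which limits this comparison.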

How the data were processed

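RNA of 10 cultures, 2 for each of 5 groups, was measured on Affymetrix mouse gene arrays. The deposited values are log2 intensities per probe set, summarised by the authors with RMA in Partek, per the submitters' processing notes, which give no versions. Their range fits a base of 2, and no header states it. Scan or processing batches were not analysed here. The platform annotation named 21789 probe sets with 1 gene symbol, 1621 with several and 12146 with none. A gene was represented by its probe set of highest mean (999 genes had several), giving 19938 genes.

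The 5 group means were fitted jointly with limma (version 3.58.1, under R 4.3.3) to the 10 arrays (residual df 5, prior df 4.9), and the largest p of the 4 contrasts of dNSC, which had to share a sign, was adjusted by Benjamini-Hochberg. SEs are from that fit. The methods were tested on simulated data. Other normalizations, filters on dim genes, probe set rules, priors, array weights, a replicate block, the groups compared and leaving out each array were tried as alternatives.

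The members and gene lists were chosen with earlier results of these data known. Named genes are the 25 farthest from the nearest group in each direction (both dNSC arrays beyond all 8 others, at or above the median gene on the higher side, no predicted names), up to 3 called members a list and direction, or the member of largest difference where none was called, and landmarks. Further list members, symbol families, microRNAs, Gm32061 and its neighbours were chosen after their values were seen. Same-numbered replicates had deviations that correlated at 0.14 to 0.37 in the 6 pairs of groups without dNSC and at -0.11 to 0.09 in the 4 pairs with dNSC, so not every pair passed 0.1, no label gives a pairing, and the numbers were not used as a block. RefSeq (GRCm38.p6) gave names, neighbours and sequences.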

Additional observations from a re-analysis of the deposited data

Results flagged for a closer look

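Probe sets outside the named genes also differed in dNSC by limma, in a fit over all probe sets. Among the 12146 probe sets without a gene symbol 90 were called higher in dNSC than in all 4 other groups (0.741%), and among the 1621 with several symbols 12 were (0.74%). These drew attention because the report's comparisons do not use them. The farthest were 3 probe sets with identical values and no symbol, which read 10.95 and 11.11 in dNSC and 6.62 to 7.66 on the 8 other arrays (3.43 ± 0.14 above the nearest group, adjusted p = 2.3e-05).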

How the results depend on the processing

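The main counts were 849 genes higher and 385 lower. Of the 241 called genes followed through the alternatives, 143 kept their call wherever they were tested, while 98 lost it under at least one. None reversed its direction. A reversal would have taken a move to the opposite side of all groups compared. That was hardly open to a called gene, so its absence is no measure of stability. Of the 143, 82 were tested under all 22 alternatives, and 61 were left out by 1 or both filters on dim genes. Calls lost only in the unmoderated test included those of Zic2 (adjusted p = 0.057), Krt18 (0.07), Nkd1 (0.065), Slit2 (0.094), Eno2 (0.052), Zim1 (0.052), Slc7a1 (0.053) and Uqcrh (0.055). The higher count left the range of 1.5 times with the dimmer 50% of genes left out (514, 54.4% of calls higher), with CNS_NSC left out of the comparison (2684) and against the mean of the 4 other groups (3982). The lower count did so under the unmoderated test (242), with CNS_NSC left out (2314) and against that mean (4063). Leaving out CNS_NSC or ESC and comparing with the mean of the 4 other groups ask an easier question by construction. Among the fits that left out 1 array, both counts also left that range without either dNSC array. The lower count did so as well without ESC replicate 1 or either pNSC_LF array. Leaving out 1 array gave 497 to 951 higher and 133 to 471 lower genes. With the replicate number as a block, which the check of pairing did not call for, 896 genes were higher and 429 lower, and 842 and 380 of the main calls were among them. Leaving ESC out was added after Hprt was seen. With the dimmer 50% of genes left out, 3 dorsal neural tube and crest genes, 1 BMP and Nodal gene and 0 hindbrain and Hox genes were called higher. So were 2 mesoderm and muscle genes and 3 endoderm genes, while the amino acid count stayed at 15. With 2 arrays a group, small differences and those from groups below the lower quartile are measured poorly.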
